A study of Mus musculus with 4 samples.

Results

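The gene regions without promoter or CpG island were taken from a table of merged H3K23 propionylation ChIP-seq regions of mouse heart. A region belonged to this class when the table listed at least 1 gene for it, counted no promoter and no CpG island in it, and gave a length under 30000 bases, the table's length being the end minus the start. This rule used the position of a region only, and 9218 of the 29210 regions met it (31.6%). ChIP-seq recovers and sequences the DNA bound by an antibody, here one against histone H3 propionylated at lysine 23 (H3K23Pr). The hearts came from male C57Bl/6J mice of 12 weeks that ate a diet with branched-chain amino acids (BCAA-control) or a diet without them (BCAA-free), from 4 days before surgery. Surgery was transverse aortic constriction (TAC), which narrows the aorta and loads the left ventricle with pressure, or a sham operation, and hearts were taken 1 week later. The 4 groups were BCAA-control sham, BCAA-control TAC, BCAA-free sham and BCAA-free TAC. Each group was 1 library made from a pool of 3 hearts, so animals cannot be told apart within a group and no comparison could be tested across animals.

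Propionylation places a short acyl group on lysine, with propionyl-CoA as the donor, and H3K23Pr has been described as a mark of active chromatin. Valine and isoleucine are broken down to propionyl-CoA in mitochondria, which links the mark to the diet compared here, and fatty acids with an odd number of carbons give it as well. Away from promoters, an active acylation mark typically lies over enhancers and over the bodies of genes that are transcribed in the cell type. In a whole heart such regions come from cardiomyocytes, which carry the sarcomere and most mitochondria, and from fibroblasts, endothelial cells, smooth muscle and leukocytes.

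The absence of a promoter was that of the table's own annotation, and some regions of the class held the start of another transcript. Of the 9218 regions, 502 (5.45%) enclosed at least 1 of RefSeq's start windows, which run from 250 bases before to 50 bases after a start, and in 177 regions the start was that of a gene listed for the region. Among those 177 regions, 10 (5.65%) were higher and 11 (6.21%) lower with TAC on the control diet by the 1.5-fold rule explained further on. The shares were 4.70% and 8.48% in the class and 4.36% and 5.31% over all regions. The median log2 ratio of the 177 regions was 0.03. The 8 windows printed here, chosen with their values known, are alternative starts inside regions that the results turn on. Mb (myoglobin), Ppargc1a (the mitochondrial coactivator PGC-1α), Esrrg (the nuclear receptor ERRγ) and Cacnb2 (a subunit of the L-type calcium channel) lay in regions with less signal after TAC on the control diet. Sema4d (a semaphorin), Coro2a (an actin-binding coronin), Kcnab2 (a potassium channel subunit) and Dock10 (a guanine nucleotide exchange factor of leukocytes) lay in regions with more signal. The sequences are RefSeq's on build GRCm38.p6, the assembly that is also called mm10, written 5′ to 3′ along the gene's strand. Capitals mark a match to 1 of 5 motifs.

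Mb, chr15:77022678-77022977, minus strand: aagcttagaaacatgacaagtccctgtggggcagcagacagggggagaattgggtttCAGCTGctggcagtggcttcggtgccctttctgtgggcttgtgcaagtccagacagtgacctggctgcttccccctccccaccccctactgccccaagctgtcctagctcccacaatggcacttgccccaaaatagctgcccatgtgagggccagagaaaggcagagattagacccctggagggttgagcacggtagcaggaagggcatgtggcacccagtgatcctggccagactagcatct
Ppargc1a, chr5:51567676-51567975, minus strand: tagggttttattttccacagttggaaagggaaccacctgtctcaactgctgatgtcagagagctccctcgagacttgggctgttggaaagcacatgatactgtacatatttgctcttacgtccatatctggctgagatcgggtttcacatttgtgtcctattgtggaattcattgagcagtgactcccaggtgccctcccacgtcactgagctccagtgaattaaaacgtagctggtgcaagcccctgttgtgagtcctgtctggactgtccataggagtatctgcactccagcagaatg
Esrrg, chr1:187997577-187997876, plus strand: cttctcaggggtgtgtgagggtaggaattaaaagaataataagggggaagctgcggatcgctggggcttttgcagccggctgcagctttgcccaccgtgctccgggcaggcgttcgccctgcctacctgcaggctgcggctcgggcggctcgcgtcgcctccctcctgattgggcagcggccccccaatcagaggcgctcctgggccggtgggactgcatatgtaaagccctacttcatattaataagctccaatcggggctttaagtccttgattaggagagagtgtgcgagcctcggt
Cacnb2, chr2:14823842-14824141, plus strand: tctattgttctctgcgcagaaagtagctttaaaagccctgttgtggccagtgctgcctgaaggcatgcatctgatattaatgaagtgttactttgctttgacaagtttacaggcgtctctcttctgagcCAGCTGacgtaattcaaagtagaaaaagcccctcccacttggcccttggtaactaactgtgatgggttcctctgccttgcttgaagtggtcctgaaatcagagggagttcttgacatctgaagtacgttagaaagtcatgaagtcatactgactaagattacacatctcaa
Sema4d, chr13:51739397-51739696, minus strand: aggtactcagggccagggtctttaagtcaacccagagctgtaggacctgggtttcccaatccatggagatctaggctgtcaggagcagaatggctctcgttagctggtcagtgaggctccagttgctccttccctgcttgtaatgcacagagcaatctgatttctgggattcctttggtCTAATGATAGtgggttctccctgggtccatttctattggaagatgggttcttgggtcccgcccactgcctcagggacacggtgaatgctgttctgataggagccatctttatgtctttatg
Coro2a, chr4:46566391-46566690, minus strand: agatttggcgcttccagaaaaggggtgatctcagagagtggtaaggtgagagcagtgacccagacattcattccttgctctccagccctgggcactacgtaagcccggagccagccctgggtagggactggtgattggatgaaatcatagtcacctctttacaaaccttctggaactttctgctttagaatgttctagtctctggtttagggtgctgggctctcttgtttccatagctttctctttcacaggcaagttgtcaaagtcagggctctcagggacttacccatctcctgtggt
Kcnab2, chr4:152448806-152449105, minus strand: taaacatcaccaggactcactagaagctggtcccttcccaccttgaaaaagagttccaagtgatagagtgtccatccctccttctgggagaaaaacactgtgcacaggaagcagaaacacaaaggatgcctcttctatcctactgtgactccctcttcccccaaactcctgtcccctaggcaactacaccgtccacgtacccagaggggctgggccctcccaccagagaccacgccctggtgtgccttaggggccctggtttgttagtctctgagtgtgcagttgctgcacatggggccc
Dock10, chr1:80665303-80665602, minus strand: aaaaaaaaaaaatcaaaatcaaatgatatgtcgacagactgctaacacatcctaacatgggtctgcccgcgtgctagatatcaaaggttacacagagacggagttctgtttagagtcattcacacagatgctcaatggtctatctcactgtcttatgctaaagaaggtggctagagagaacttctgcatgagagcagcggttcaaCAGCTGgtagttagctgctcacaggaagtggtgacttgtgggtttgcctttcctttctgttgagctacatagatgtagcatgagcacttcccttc

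Both strands were searched. The MEF2 motif was taken as CTA and TAG with 4 free bases between them, and the ERR motif as TCAAGGTCA. The letters searched for GATA factors, which act in heart and blood cells, were AGATAA. The PU.1 motif of myeloid cells was searched as GAGGAAGT. An E-box, a site of helix-loop-helix factors, was searched as CAGCTG, and none of these motifs contains another. The MEF2 letters stood in the Sema4d window and the E-box letters in the Mb, Cacnb2 and Dock10 windows, while the other 4 windows held none of the 5. Over the 204 windows of listed genes, the E-box letters stood in 22.1%, against 16.3% of all 32851 windows. GATA letters stood in 6.86% against 11.2%, MEF2 letters in 4.41% against 3.69%, PU.1 letters in 3.92% against 3.20% and ERR letters in 0 against 0.423%. These shares are descriptions of the letters in the windows and say nothing of the factors.

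The class covered 71.1 megabases, 23.8% of the length of all regions, with a median length of 6000 bases and a range of 400 to 30000, counting both end bases, which makes each length 1 base more than the table's. The rule's limit of length left out 369 regions, the shortest of 30200 bases. Of the 9218 regions, 7702 were listed inside at least 1 gene, 1179 only downstream and 242 only upstream of a gene. The table does not say whether a region inside a gene is exonic or intronic, and this was not analysed here. The middle of a region lay a median of 46728 bases from the nearest listed start. A single gene was listed for 8310 regions and 2 or more for 908, and the 5324 genes had unequal shares. Rora, a nuclear receptor of the circadian clock, had 21 regions, Rbms3 had 20, and 611 genes had at least 4.

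Signal was weaker in these regions than at promoters. The median average signal, the mean height of the authors' signal track over a region, was 5.88 in BCAA-control sham, 5.84 in BCAA-control TAC, 6.07 in BCAA-free sham and 5.74 in BCAA-free TAC. This is the order in which the 4 libraries' values are given from here on. In CpG island promoter regions the medians ran from 8.62 to 8.98 and in promoter regions without a CpG island from 6.60 to 7.09. A peak was called in all 4 libraries in 42.4% of the class, against 89.0% of CpG island promoter regions and 42.7% of regions with no listed gene. A single library had the call in 2439 regions, most often BCAA-free sham (766) and least often BCAA-free TAC (364). The median region corresponded to 156, 155, 162 and 153 sequenced fragments, estimated from signal and length. As a check of the tissue, regions of the sarcomere list had median signals of 6.66, 4.48, 6.04 and 5.08, and those of a list of neuron and liver genes 4.64, 4.73, 5.83 and 5.02. The sarcomere list was the higher in 3 of the 4 libraries and clearly so only in BCAA-control sham. Signals are per base of a region, so regions of unequal length can be set side by side. The strongest single region by mean signal lay in Ppp2r4, a phosphatase activator gene, at chr2:30435000-30455199, with 24.2, 23.3, 21.9 and 23.1, close together in the 4 libraries. Tacc2, a gene of a centrosomal protein, had a strong region of 1000 bases with 26.3, 14.9, 20.03 and 17.8, highest in BCAA-control sham. The neuron and liver list still had 29 regions with a peak call in some library, among them 8 of Dlg2, a synaptic scaffold gene.

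Pressure overload on the control diet went with less signal at more of these regions than with more signal. With 1 library a group, a region was called higher or lower where the log2 ratio, taken after adding a pseudocount of 1 to both signals, passed 1.5-fold (0.58). By this rule 433 regions (4.70%) were higher and 782 (8.48%) lower after TAC, with a median ratio of 0.00. Over all 29210 regions, 4.36% were higher and 5.31% lower. Promoter regions without a CpG island had the opposite split, with 305 of 3313 higher (9.21%) and 147 lower (4.44%). The 6316 regions with no listed gene resembled the class, with 6.68% higher and 8.57% lower, and CpG island promoter regions were called in 1.15% and 0.64%. No test stands behind these percentages, since each rests on 1 pair of libraries. Regions with a peak call in a single library made up 220 of the 433 higher and 273 of the 782 lower regions. Of such regions 9.02% were higher and 11.2% lower, against 1.20% and 5.83% of regions called in all 4 libraries. A region called in a single library entered the class through that library, so its ratio is tied to its selection. The part of this selection in the shares was not tested.

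**Figure D1:**
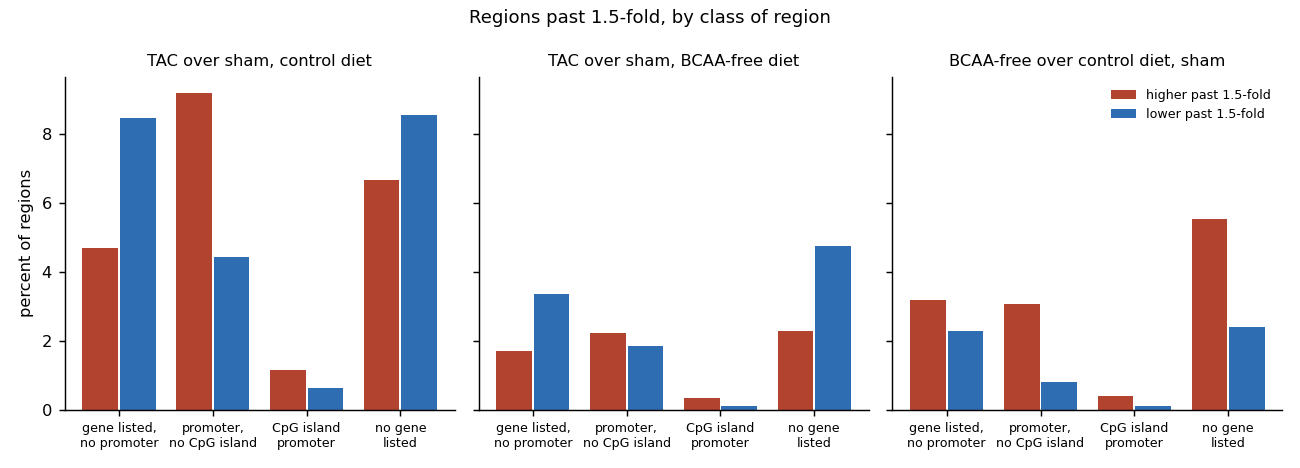
Percent of regions higher (red) and lower (blue) past 1.5-fold in 4 classes of region, for TAC over sham on either diet and for the BCAA-free over the control diet in sham hearts, 1 library a group. After TAC on the control diet, 8.48% of regions with a listed gene and no promoter were lower and 4.70% higher, and 9.21% of promoter regions without a CpG island were higher and 4.44% lower.

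The surplus of lower regions was largest among the stronger ones. Where the mean signal was over 7.04, the upper quartile of the class, 10.8% were lower and 2.73% higher after TAC on the control diet. Where it was up to 4.99, the lower quartile, the shares were 7.42% and 7.07%. Within the same range of strong signal, promoter regions without a CpG island were lower in 5.06% and higher in 4.03%. Regions with no listed gene shared the pattern of the class. They were lower in 9.70% and higher in 2.91% in the strong range, and 8.65% and 12.8% up to 4.99. Location moved with the split as well: regions within 10 kilobases of the nearest listed start were higher in 9.24% and lower in 7.21%, and regions over 200 kilobases away in 3.38% and 10.2%. Of the regions inside a gene, 343 were higher and 685 lower, while regions only downstream of a gene had 71 and 69.

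The share of regions past the rule was smaller in longer regions, which hold more fragments. Up to 2 kilobases, 11.7% were higher and 21.0% lower after TAC on the control diet, and between 20 and 30 kilobases 0.224% and 3.36%. The median standard error from counting alone was 0.139 on the log2 scale over the class. Among the 2414 regions of 10 kilobases or more, which count best, 34 were higher and 109 lower. The counting intervals given below cover counting error only, not the spread between animals.

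**Figure D2:**
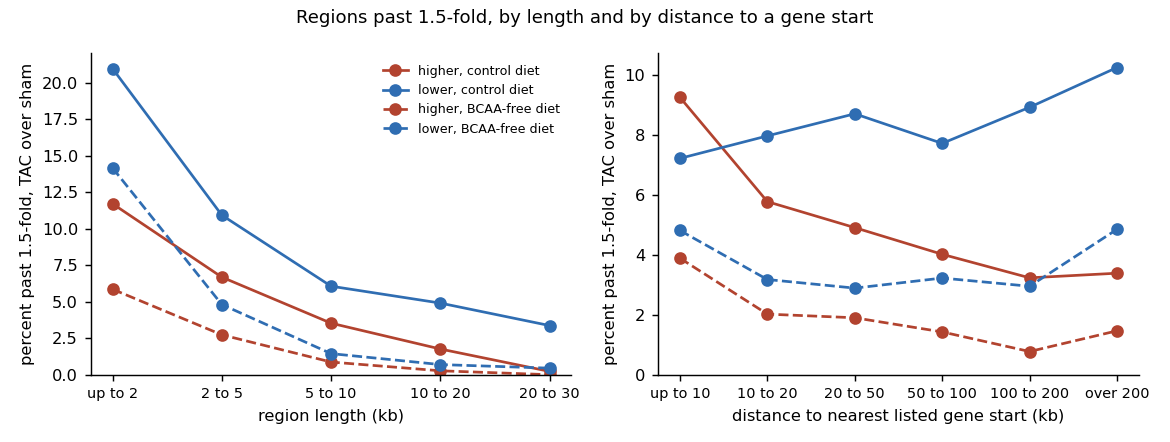
Percent of the 9218 regions higher (red) or lower (blue) past 1.5-fold after TAC, on the control diet (solid) and the BCAA-free diet (dashed), by region length (left) and by distance of the region's middle from the nearest listed gene start (right). Both shares were largest up to 2 kilobases (11.7% higher and 21.0% lower on the control diet), and lower regions outnumbered higher ones in every bin beyond 10 kilobases from a start.

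Genes of the contracting and conducting cardiomyocyte had less signal after TAC on the control diet. Of 36 regions of 13 sarcomere genes, 11 (30.6%) were lower and 0 higher, beside 8.48% and 4.70% in the class. Their median log2 ratio was -0.41, beside 0.00 over the class. In Ttn, the gene of the giant elastic filament titin, the region at chr2:76965000-76978799 had signals of 8.04, 4.33, 6.62 and 4.97 and a TAC ratio of -0.76 (95% counting interval -0.94 to -0.58) on the control diet. A short Ttn region, 2800 bases at chr2:76805200-76807999, had 7.38, 4.27, 4.92 and 3.45, and the ratio was -0.67. The third, shared with Plekha3 at chr2:76686600-76698799, had 5.29, 4.40, 5.18 and 5.78 and a ratio of -0.22, so that the region farthest from the start differed least. Fhod3, a formin that builds sarcomeric actin, had 8 regions, all below 0 and 5 past the rule, with a median of -0.62. Myom1, an M-band protein, was mixed, with ratios from -0.34 to 0.40. Myl4, the atrial light chain, had a median of 0.26 over 2 regions. In pooled whole hearts, fewer cells of a type and less of the mark per cell cannot be told apart. The estimated fragments of the sarcomere list summed to 10327, 7751, 9311 and 8033 in the 4 libraries.

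Mb, the gene of the oxygen store myoglobin, had 1 of the strong regions of the class. This region of 30000 bases at chr15:77002800-77032799, which encloses the printed Mb start window, had signals of 16.0, 9.52, 13.7 and 9.67. Both TAC libraries stood below both sham libraries there, and the ratio was -0.70 (95% counting interval -0.79 to -0.60) on the control diet and -0.46 on the BCAA-free diet.

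The calcium and ion channel list gave 79 regions of 17 genes, with a median of -0.25 for TAC on the control diet. Of these regions 19 (24.1%) were lower and 2 (2.53%) higher, beside 8.48% and 4.70% in the class. All 5 regions of Ryr2, the calcium release channel of the sarcoplasmic reticulum, were lower past the rule. The longest, 23800 bases at chr13:12054000-12077799, had signals of 9.13, 4.92, 6.78 and 4.25 and a ratio of -0.77 (95% counting interval -0.91 to -0.64). The other 4 ran from -0.91 to -0.60. Trdn (triadin), which anchors the release complex, was lower at 3 of 3 regions with a median of -0.69. Cacna1c, the pore of the L-type calcium channel, had 8 regions with ratios from -0.62 to 0.07 and a median of -0.40, of which 1 passed. The Cacnb2 region around the printed start, chr2:14820600-14842399, had 10.5, 5.95, 8.90 and 6.37 and a ratio of -0.72 (95% counting interval -0.85 to -0.59). In the same list Itpr2, another calcium release channel, was higher at 2 of 7 regions and lower at none, with a median of 0.26. Kcnd3, a channel of the transient outward current, is not in this list and was chosen after its values were seen. It was lower at 4 of 6 regions.

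Intercalated disc genes, which couple cardiomyocytes end to end, had 12 of 32 regions (37.5%) lower and none higher, with a median of -0.50. The class had 8.48% lower and 4.70% higher. The region of Pkp2, a desmosomal plakophilin, at chr16:16245200-16263599 had 8.65, 4.67, 7.19 and 5.35 and a ratio of -0.77 (95% counting interval -0.92 to -0.62). Dsg2 (desmoglein 2) had a single region of 2000 bases with 9.54, 3.90, 7.94 and 7.53, and its ratio was -1.10 on the control diet and -0.07 on the BCAA-free diet. Only the BCAA-control TAC library was low there. Cdh2 (N-cadherin) was below 0 at 8 of 8 regions, with a median of -0.55. Ctnna3, a cardiac α-catenin, was below 0 at 9 of 10, with a median of -0.45. Of the 11 genes 9 had a median below 0. The medians of Ctnna1 (0.23) and Vcl (0.08), over 2 regions each, lay above 0.

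Among the long regions with the lowest TAC ratios were those of some regulators of heart muscle. That of Adra1a, the α1A-adrenergic receptor of the hypertrophy list, at chr14:66727600-66738999 had 18.2, 9.76, 14.2 and 9.11, with a ratio of -0.84 (95% counting interval -0.98 to -0.69). Myocd (myocardin, a coactivator of genes of cardiac and smooth muscle) had 9.59, 4.80, 8.64 and 5.23 at chr11:65199600-65219199, and the ratio was -0.87 (95% counting interval -1.01 to -0.72). Both TAC libraries were below both sham libraries in these regions. The Corin region at chr5:72404000-72415199, in the gene of the protease that processes natriuretic peptide, had 12.3, 7.20, 12.9 and 7.66 and ratios of -0.70 on the control diet and -0.69 on the BCAA-free diet. These 3 were taken from the lowest ends of the ranking of regions of 10 kilobases or more, which was added after the data were seen. Their low ratios therefore follow from the choice. The same ends held regions of other genes, among them Sh3rf2, Glt28d2 and Agtpbp1. The hypertrophy list as a whole had a median of -0.08 on the control diet.

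Regions of transcriptional regulators of mitochondrial fuel use had less signal after TAC on the control diet. Of 21 regions of 6 fatty acid oxidation genes, 10 (47.6%) were lower and none higher after TAC on the control diet, with a median of -0.58. The class had 8.48% lower and 4.70% higher. All 10 lower regions belong to the regulators Esrrg, Ppargc1a and Ppara, and 12 of the 21 regions are those of Esrrg. The enzyme genes of the list had 1 region each and none past the rule, with -0.06 for Cpt1a and 0.02 for Cpt2, carnitine palmitoyltransferases, and -0.31 for Acot2, a mitochondrial thioesterase. All 12 Esrrg regions were below 0, 7 past the rule, with ratios from -1.06 to -0.22. The region with the printed Esrrg start had 6.28, 3.19, 4.19 and 3.61 over 1800 bases, and the ratio was -0.80 (95% counting interval -1.34 to -0.25). Ppargc1a had 10.4, 5.84, 8.86 and 6.62 in the region around its printed upstream start, chr5:51562400-51571199, with a ratio of -0.74 (95% counting interval -0.94 to -0.53) on the control diet and -0.37 on the BCAA-free diet. A region inside the gene, 33922 bases from the listed start, had 4.53, 2.45, 5.45 and 3.55 and a ratio of -0.68. Ppara, a nuclear receptor that controls fat oxidation, was below 0 at 3 of 3, with a median of -0.47. The 6 oxidative phosphorylation regions had a median of -0.53 and the 6 tricarboxylic acid cycle regions -0.24, with 1 lower and none higher in each. The genes pointed both ways: Ndufb5, a complex I subunit, had -0.69 and Idh3a, of isocitrate dehydrogenase, -0.59. Above 0 were Cox4i1 (0.38), Atp5o (0.24), Mdh1 (0.31) and Pdha1 (0.37), none past the rule.

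Leukocyte genes had more signal after TAC on the control diet. Of 72 regions of 25 macrophage and leukocyte genes, 17 (23.6%) were higher and 1 (1.39%) lower, beside 4.70% and 8.48% in the class. The median was 0.39, and 22 of the 25 genes had a median above 0. The list's median signals were 4.19, 6.02, 4.70 and 5.48, lowest in the control-diet sham library and highest in the control-diet TAC library, and its estimated fragments summed to 12587, 15865, 12717 and 14103. Whether the number of leukocytes differed between the pools was not tested.

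Ptprc (CD45), the pan-leukocyte phosphatase, had 3 regions, 2 of them past the rule. The longest, at chr1:138133200-138141199, had 2.94, 5.03, 2.94 and 3.54 and a ratio of 0.61 (95% counting interval 0.34 to 0.89). The control-diet TAC library alone stood apart there, and the ratio on the BCAA-free diet was 0.20. Cx3cr1, the fractalkine receptor of monocytes and macrophages, had 4.03, 7.40, 4.74 and 5.18 at chr9:120040000-120056399, with a ratio of 0.74 (95% counting interval 0.57 to 0.91). A peak was called there in the control-diet TAC library alone, so the region entered the class through the library in which it was highest. Vav1, an exchange factor of blood cells, had 4.58, 8.65, 4.90 and 6.68 at chr17:57333400-57345399 and 0.79 (95% counting interval 0.60 to 0.98). Plcg2, a phospholipase of B cells and myeloid cells, had 3.41, 8.51, 3.41 and 6.13 in a region of 3200 bases, and a ratio of 1.11. The region of Csf1r, the receptor of the macrophage growth factor, had a ratio of 0.54 and that of Cd163, a scavenger receptor, 0.54, both just short of the rule.

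Runx1, a transcription factor of blood cells, was not uniform along the gene. Its 3 regions nearest the listed start were all higher past the rule (0.66, 0.61 and 0.77), and the 3 farther regions had -0.19, 0.21 and -0.22. Dock10 was above 0 at 7 of 8 regions with a median of 0.50, and the region with its printed start had 3.77, 5.86, 3.51 and 4.51. Lyn, a kinase of the Src family, was above 0 at 6 of 6, with 1 past the rule. In the region of Sema4d's printed start, chr13:51729800-51745799, signals were 4.75, 8.57, 4.55 and 7.06 and the ratio was 0.74 (95% counting interval 0.57 to 0.90). Kcnab2 had 6.53, 11.2, 5.37 and 7.54 and 0.69 (95% counting interval 0.41 to 0.97). Of the regions of 10 kilobases or more, the one that lists BC049352 and Il10ra, the interleukin 10 receptor gene, had 8.31, 15.1, 8.70 and 12.9 at chr9:45231400-45255999 and 0.79 (95% counting interval 0.69 to 0.90). Tlr7, a receptor for viral RNA, had 5.35, 9.75, 5.33 and 7.78 at chrX:167312800-167324399 and 0.76 (95% counting interval 0.58 to 0.94). Il10ra and Tlr7 are not in the leukocyte list. Their regions were taken from the highest end of the ranking of long regions after their values were seen. Their high ratios therefore follow from the choice. The same end held regions of other genes, among them Armc9, Prr5l and Klhl18. Of 32 lymphocyte regions none passed the rule, with a median of 0.05, though 14 of the 32 belong to Ebf1.

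Among lists of other cell types and of signalling, the TAC medians on the control diet were 0.08 for 55 fibroblast regions, 0.13 for 50 extracellular matrix regions, -0.07 for 41 endothelial regions, -0.02 for 15 smooth muscle regions and -0.08 for 109 regions of hypertrophy signalling genes. Of the last list 11 regions (10.1%) were lower and 2 (1.83%) higher, beside 8.48% and 4.70% in the class, so its share of lower regions was near that of the class. The endothelial median was above 0 with peak height in place of average signal (0.07). The 12 regions of 7 cell cycle genes had a median of 0.29, with all 7 gene medians above 0 and 2 regions past the rule. These 2 were Cenpf, a kinetochore gene (0.71), and Brca1, a DNA repair gene that shares its region with Nbr1 (0.78). The neuron and liver list, of genes with little known use in heart, had 0.03, or -0.02 after quantile normalisation, with 4 of 29 regions lower and 2 higher.

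**Figure D3:**
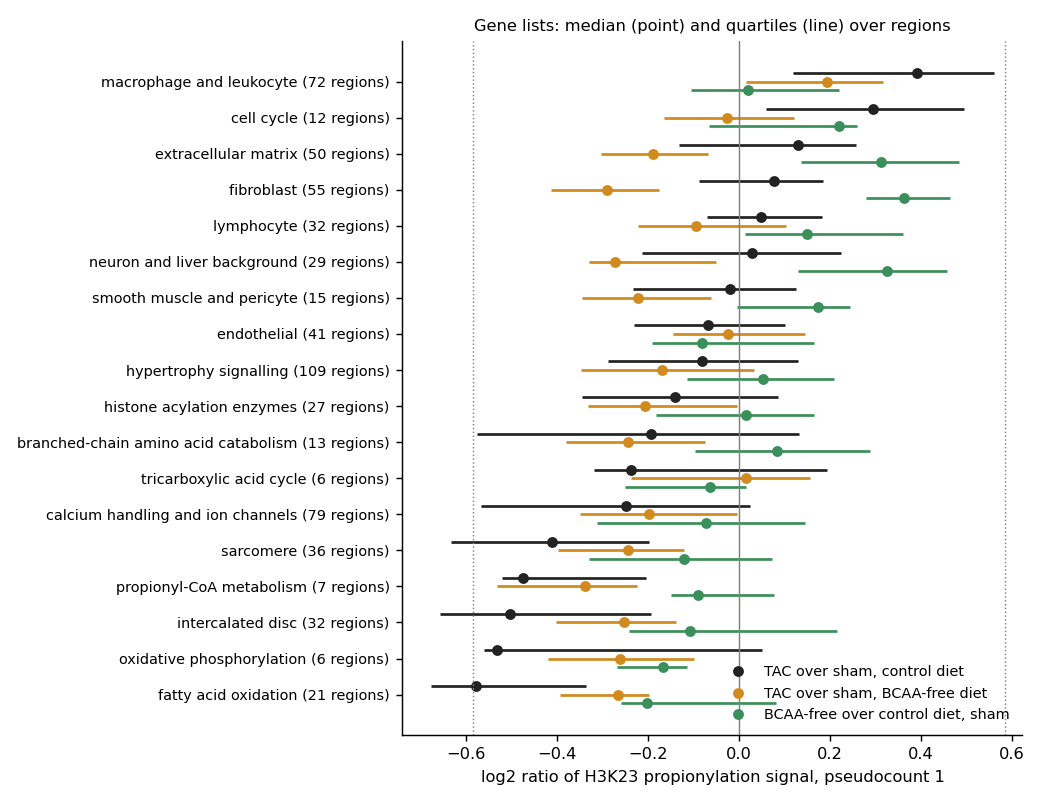
Log2 signal ratios of gene lists for TAC over sham on the control diet (black), TAC over sham on the BCAA-free diet (orange) and BCAA-free over control diet in sham hearts (green). Points are medians and lines the quartiles over regions, and dotted lines mark 1.5-fold. After TAC on the control diet the medians of fatty acid oxidation (-0.58), oxidative phosphorylation (-0.53) and intercalated disc genes (-0.50) lie lowest and that of macrophage and leukocyte genes highest (0.39), and fibroblast genes are highest with the BCAA-free diet in sham hearts (0.36).

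On the BCAA-free diet fewer regions passed the rule after TAC. There were 158 higher (1.71%) and 310 lower (3.36%), beside 1.41% and 2.37% over all regions, and the class median was -0.09. This split depends on how libraries are scaled: 33.8% of the called regions were higher with the deposited values, 51.2% with medians set equal and 47.1% after quantile normalisation. The medians of cardiomyocyte lists were -0.25 for sarcomere genes (2 of 36 lower), -0.20 for calcium and ion channel genes (3 of 79), -0.25 for intercalated disc genes (5 of 32) and -0.27 for fatty acid oxidation genes (1 of 21). None of these regions was higher past the rule. The leukocyte median was 0.19, with 3 of 72 regions higher, 2 lower and 23 of 25 genes above 0.

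The TAC comparisons of both diets share no library, so their regions could be matched. Of the 433 regions higher on the control diet, 64 were also higher on the BCAA-free diet, which is 14.8% of the former and 40.5% of the latter 158. Of the 782 lower regions 115 were lower on both, 14.7% and 37.1%. Of the regions called higher on the control diet, 86.8% had a ratio above 0 on the BCAA-free diet, where 36.6% of the class did. Of those called lower, 90.9% were below 0, against 63.4% of the class. Their median ratios on the BCAA-free diet were 0.31 and -0.33. Across the 9218 regions the ratios of both diets had a Pearson r of 0.53 and a Spearman coefficient of 0.53. These points share the libraries and the depth of each region, so the coefficients only describe. Among regions with similar ratios on both diets were those of Rptor, the scaffold of the growth kinase mTORC1. Its region at chr11:119873600-119878599 had 3.82, 9.25, 3.53 and 7.57, with ratios of 1.09 and 0.92. This was the highest of its 5 regions on the control diet, and the lowest had -0.67.

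**Figure D4:**
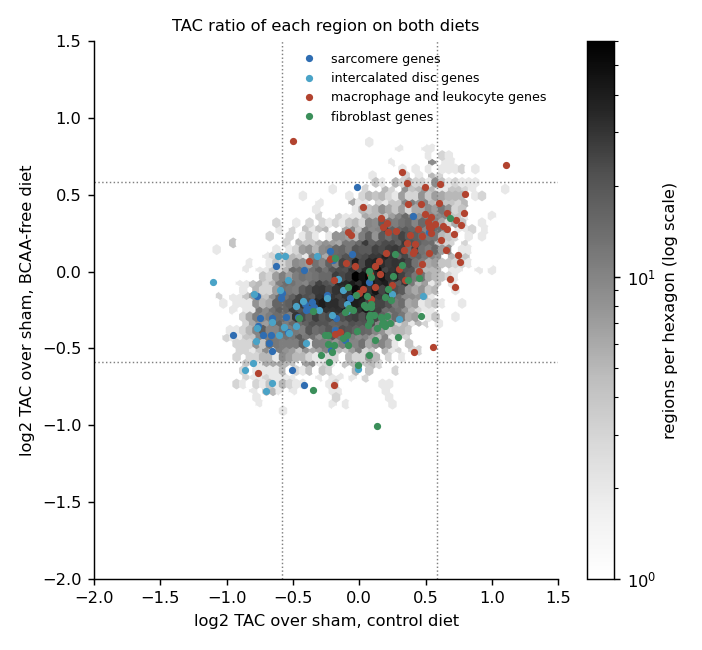
Log2 TAC over sham of the 9218 regions on the control diet (horizontal) and the BCAA-free diet (vertical). Hexagons are shaded by the number of regions on a log scale, points are the regions of 4 gene lists and dotted lines mark 1.5-fold. Regions beyond the axes, among them the highest ratio on the control diet (2.07) and on the BCAA-free diet (1.77), are not drawn. Regions spread along the diagonal (r = 0.53), with sarcomere and intercalated disc genes to the lower left and macrophage and leukocyte genes to the upper right.

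Without branched-chain amino acids, sham hearts had more signal over fibroblast and matrix genes. In the class as a whole 294 regions were higher (3.19%) and 210 lower (2.28%) on the BCAA-free diet in sham hearts, beside 2.71% and 1.37% over all regions, with a median of 0.03. This comparison shares the BCAA-control sham library with TAC on the control diet. The share higher among called regions was 58.3% with deposited values, 47.7% with equal medians and 41.3% after quantile normalisation. Of 55 fibroblast regions 5 were higher and none lower, the median was 0.36, and 12 of 12 genes had a median above 0. Rora accounts for 21 of these 55 regions. Extracellular matrix genes had 6 of 50 regions higher, none lower and a median of 0.31. Beside these, the neuron and liver list had a median of 0.33, with 3 of 29 regions higher and 2 lower, the lymphocyte list 0.15 and the leukocyte list 0.02. The part of the wider shift in the fibroblast result was not tested.

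Bicc1, an RNA-binding protein gene active in fibroblasts, was above 0 at 8 of 8 regions with the BCAA-free diet in sham, with ratios from 0.24 to 0.91. Its region at chr10:71000800-71012799 had 7.11, 6.65, 11.7 and 8.10, and the diet ratio in sham was 0.64 (95% counting interval 0.48 to 0.81). The BCAA-free sham library alone stood apart there. Scara5, a ferritin receptor of fibroblasts, had 6.87, 5.91, 10.7 and 7.39 at chr14:65734600-65751799 and a diet ratio of 0.57 (95% counting interval 0.43 to 0.71). Rora was above 0 at 21 of 21 regions, with a median of 0.34 and 1 past the rule. Col14a1, a collagen of the fibril surface, had a median of 0.54 over 3 regions and Col5a2 0.51 over 4. The Mmp2 region, in the gene of a matrix protease, had 4.18, 4.92, 6.38 and 5.91 and a ratio of 0.51. Dlg2 of the neuron list was above 0 at 8 of 8, with a median of 0.48.

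TAC over sham on the BCAA-free diet uses the same BCAA-free sham library as its denominator, and the fibroblast genes were among several lists below 0 in that comparison. The fibroblast median was -0.29, with 4 of 55 regions lower, and the matrix median -0.19, with 2 of 50, beside 3.36% lower in the class. The neuron and liver list had a median of -0.27 with 4 of 29 lower, a larger share than the fibroblast list, and the smooth muscle list -0.22 with 1 of 15. Bicc1 was below 0 at 8 of 8 regions and Rora at 20 of 21. Summed fragments of the fibroblast list were 15509, 15932, 20227 and 16477 in the 4 libraries, so that 3 libraries lay close and BCAA-free sham above them. Between the TAC hearts of both diets the fibroblast median was 0.01.

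Between the diets in sham hearts, cardiomyocyte lists had medians of -0.12 for sarcomere, -0.11 for intercalated disc, -0.07 for calcium and ion channel and -0.20 for fatty acid oxidation genes. Gene medians lay above 0 for 6 of 13, 3 of 11, 6 of 17 and 3 of 6 genes in the same order. Esrrg accounts for 12 of the 21 fatty acid oxidation regions. Beside 2.28% lower in the class, 3 of 21 fatty acid oxidation regions were lower and 1 higher, and 5 of 79 calcium and ion channel regions were lower and 2 higher. Of 36 sarcomere regions 1 was lower and none higher, and of 32 intercalated disc regions 1 was lower and 1 higher. The sarcomere median was 0.04 with peak height. Among regions of 10 kilobases or more, 9 were higher and 4 lower past the rule. The lower were those of Pfkm with Asb8 (-0.68), Wnk2 (-0.67), Nsmce2 (-0.61) and Smad1 (-0.60). Rbm20 and Myom2 were chosen from the same ranking after their values were seen, and lay just short of the rule. Rbm20, the splicing factor of titin, had 9.66, 5.38, 6.12 and 4.39 at chr19:53737000-53746999, with a diet ratio of -0.58 (95% counting interval -0.77 to -0.39) in sham. Myom2 had 10.8, 7.88, 6.99 and 7.05 and -0.56 (95% counting interval -0.75 to -0.38), and the control-diet sham library was the highest of the 4 in both regions. Ryr2 was below 0 at 4 of 5 regions with a median of -0.38. The diets differed least after TAC, where 119 regions were higher (1.29%) and 122 lower (1.32%) on the BCAA-free diet, beside 0.948% and 0.962% over all regions, with a median of -0.02. Leukocyte regions had a median of -0.12 in that comparison, with 3 lower and 1 higher of 72, and the 3 Ptprc regions ran from -0.48 to -0.41.

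The difference between both TAC ratios passed the 1.5-fold rule upward at 299 regions (3.24%) and downward at 450 (4.88%), beside 2.17% and 3.94% over all regions. Its split turned with scaling, from 39.9% upward with deposited values to 56.9% with equal medians and 57.5% after quantile normalisation. Tbxas1, the gene of thromboxane synthase, had a run of such regions. Its region at chr6:38934600-38943599 had 5.22, 10.8, 5.86 and 6.93, with a TAC ratio of 0.92 (95% counting interval 0.72 to 1.13) on the control diet and 0.21 (95% counting interval -0.01 to 0.43) on the BCAA-free diet. Of its 5 regions, 4 were higher past the rule on the control diet and none on the BCAA-free diet, and the difference had a median of -0.71. Trdn went the other way, with a median difference of 0.71 over 3 regions.

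Genes of the pathway that the diet feeds were few in the class. Branched-chain amino acid catabolism gave 13 regions of 5 genes, and the median TAC ratio was -0.19 on the control diet (3 lower, none higher) and -0.24 on the BCAA-free diet (2 lower). The diet ratio in sham was 0.08, with 1 region higher. Bckdhb encodes part of the dehydrogenase complex that commits branched-chain carbon skeletons to oxidation, and it had 7 regions. The region nearest its start, at chr9:83960800-83965199, had 6.82, 4.02, 5.89 and 4.29 and a TAC ratio of -0.64 (95% counting interval -0.97 to -0.31) on the control diet. The farthest, at chr9:84106200-84117799, had 6.67, 7.43, 9.41 and 8.88 and 0.14 (95% counting interval -0.05 to 0.32), so the ratio differed along the gene. With the BCAA-free diet in sham, Bckdhb ran from -0.18 to 0.63. Bcat2, the mitochondrial transaminase of the first step, had 6.82, 6.59, 6.42 and 5.87 in a single region, and ratios of -0.04 for TAC on the control diet and -0.08 for diet in sham, both within counting error of 0. Auh, an enzyme of leucine breakdown, had ratios of 0.27, -0.78 and -0.19 at its 3 regions after TAC on the control diet.

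Propionyl-CoA genes gave 7 regions of 6 genes, with median TAC ratios of -0.47 on the control diet and -0.34 on the BCAA-free diet. The region of Pcca, a subunit of the carboxylase that removes propionyl-CoA, at chr14:122661800-122665199 had 10.3, 7.16, 7.36 and 6.52. Control-diet sham was the highest of the 4, with -0.47 (95% counting interval -0.79 to -0.16) for TAC on the control diet and -0.44 (95% counting interval -0.75 to -0.13) for diet in sham. Mmaa, which serves the cobalamin cofactor of a later step, had 9.61, 6.16, 8.96 and 8.15 and a TAC ratio of -0.57 (95% counting interval -0.94 to -0.19). Acss3, a mitochondrial enzyme that makes propionyl-CoA from propionate, had 5.38, 5.84, 8.98 and 6.19 at chr10:107114600-107119399. The BCAA-free sham library stood above the rest, and the diet ratio in sham was 0.65 (95% counting interval 0.36 to 0.93). Acaa2, a thiolase of fatty acid oxidation that the list includes, had 8.06, 5.51, 9.36 and 3.99 in its region inside the gene, with TAC ratios of -0.48 and -1.06 (95% counting interval -1.36 to -0.75) on the control and BCAA-free diets. Pccb and, among other genes looked for, Myh6, Myh7, Cd36, Postn and Col1a1 were listed for no region of the class.

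Writers, erasers and readers of histone acylation gave 27 regions of 13 genes, with medians of -0.14 for TAC on the control diet and -0.21 on the BCAA-free diet. Higher past the rule on the control diet were the regions of Kat8, an H4 acetyltransferase, and Yeats4, an acyl-lysine reader. The Kat8 region, which also lists Prss8 and Prss36, had 6.35, 10.7, 6.03 and 8.20 and 0.67 (95% counting interval 0.33 to 1.01), and the Yeats4 region had 3.87, 6.60, 5.08 and 6.38 and 0.64 (95% counting interval 0.28 to 1.00). Kat6b, of a family of H3K23 acetyltransferases, was below 0 at 4 of 4 regions, with 1 past the rule. The single region of Crebbp, a broad acetyltransferase, had 3.67, 3.94, 4.42 and 3.54 and a ratio of 0.08.

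Regions of the same gene resembled each other more than regions at large. Over 3272 regions of 552 genes with at least 4 regions and a single listed gene, the standard deviation of the TAC ratio on the control diet was 0.286 within genes, against 0.356 over the same regions, with 0.155 from counting. On the BCAA-free diet the values were 0.227 and 0.266. Neighbouring regions of a gene can be pieces of 1 domain, so they are not replicates. Among these 552 genes, all regions were below 0 on the control diet in 73 genes and all above 0 in 74, and on the BCAA-free diet in 132 and 27. In the class as a whole 63.4% of regions were below 0 on the BCAA-free diet. The class median there was -0.09 with deposited values and -0.04 with equal medians, and the gene counts were not recomputed with other scalings. Leaving out RIKEN clone genes, the lowest medians on the control diet among genes with at least 4 regions were those of Ryr2 (-0.75), Arhgap20, a GTPase-activating protein gene (-0.73), Sh3rf2 (-0.68), Tnni3k, a kinase of cardiomyocytes (-0.67), and Cacnb2 (-0.64). The highest were those of Tbxas1 (0.84), Coro2a (0.58), Ubac2 (0.58), Rptor (0.57) and Fhit (0.53). Some of these genes had regions on both sides of 0. Cacnb2 ran from -1.04 to 0.51, Rptor from -0.67 to 1.09, Tbxas1 from -0.16 to 0.98 and Coro2a from -0.13 to 0.70. In the rest of these genes every region had the sign of the median. On the BCAA-free diet the same 5 low genes had -0.46, -0.34, -0.39, -0.41 and 0.14, and the 5 high ones 0.13, 0.35, 0.25, 0.57 and 0.39. Dmd (dystrophin), with 4 regions, had a median of -0.20 on the control diet, and 1 was lower past the rule.

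**Figure D5:**
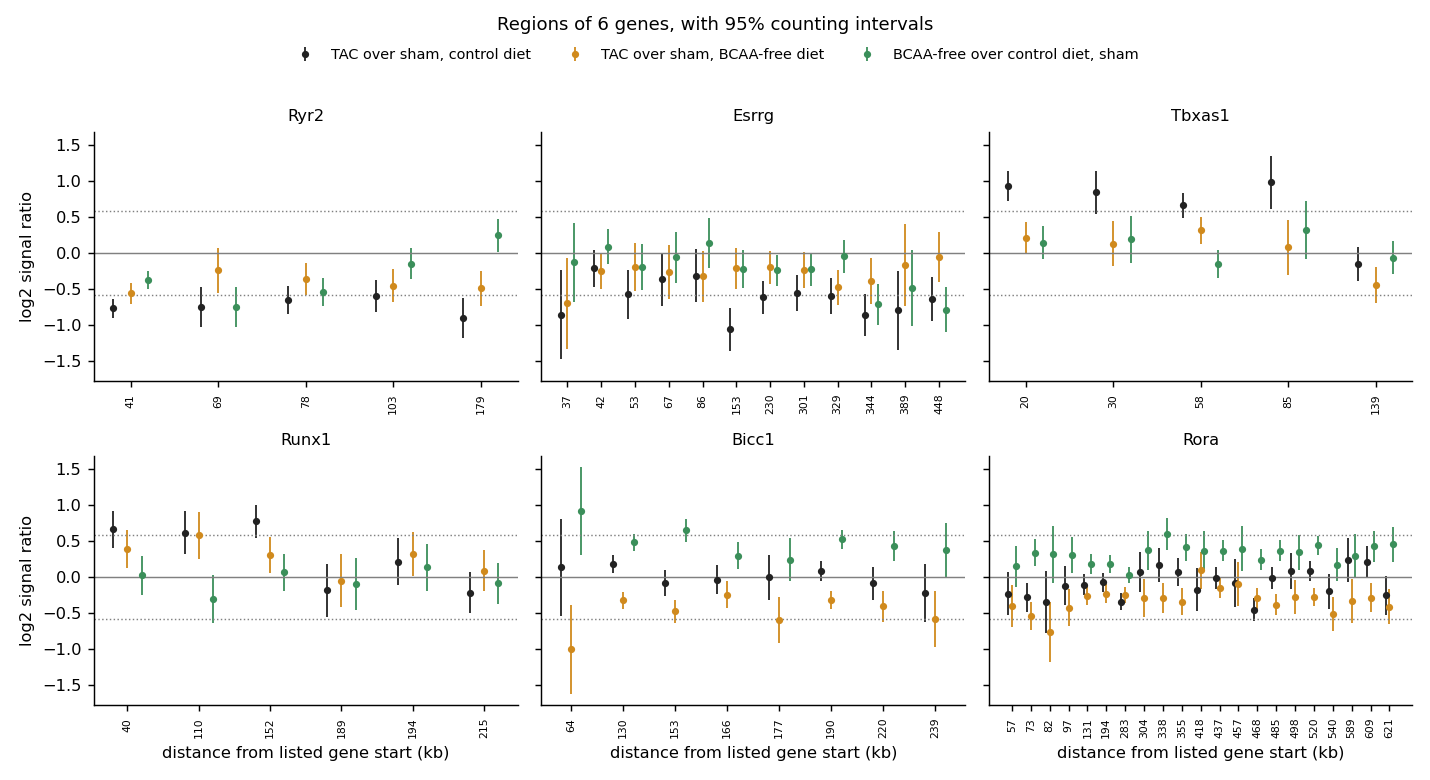
Log2 signal ratios of every region of Ryr2, Esrrg, Tbxas1, Runx1, Bicc1 and Rora, ordered by distance from the listed gene start in kilobases, for TAC on the control diet (black), TAC on the BCAA-free diet (orange) and BCAA-free over control diet in sham (green). Bars are 95% counting intervals, without the spread between animals, and dotted lines mark 1.5-fold. Ryr2 and Esrrg lie below 0 throughout for TAC on the control diet, and Bicc1 and Rora above 0 throughout for diet in sham.

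For 3103 genes the table also held a promoter region within 5000 bases of the start, and the regions of the class could be set beside it. After TAC on the control diet the median ratio of a gene's regions and the ratio of its promoter region had r = 0.38 (Spearman's coefficient 0.36), and 0.28 on the BCAA-free diet (Spearman's coefficient 0.27). Among 149 genes with a median past the rule upward, 23 (15.4%) had a promoter past it too, beside 82 (2.64%) of all 3103, and 83.2% of the 149 promoters were above 0, beside 60.7%. Among 226 genes with a median past it downward, 18 (7.96%) had a promoter past it downward, beside 45 (1.45%), and 66.8% of the promoters were below 0, beside 39.3%. The promoter medians were 0.17 and -0.09. Ttn and Runx1 were alike at both places, with promoter ratios of -0.92 and 0.64 beside -0.67 and 0.41 in their other regions. Rptor and Ubac2 were not, with promoter ratios of -0.21 and -0.14 beside 0.57 and 0.58. The Cacnb2 promoter region had -0.23 beside -0.64. In Rbm20 the values were -0.62 and -0.67.

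Short regions gave extreme ratios. The lowest TAC ratio on the control diet was that of a region of 600 bases in Hsd17b12, a fatty acid elongation enzyme gene, with 9.74, 1.90, 12.1 and 9.95. Only the control-diet TAC library was low, and the ratio was -1.89 (95% counting interval -2.85 to -0.93). The gene's other 2 regions had -0.02 and 0.14. The highest, chosen after its value was seen, was that of a region of 800 bases downstream of Il10, the gene of an anti-inflammatory cytokine, with a peak call in 1 library, at chr1:131025200-131025999. It had 1.10, 7.84, 2.24 and 3.28 and a ratio of 2.07 (95% counting interval 1.19 to 2.96), with 0.40 on the BCAA-free diet. Longer regions gave narrower intervals, as for Armc9, a gene of the ciliary basal body, at chr1:86225200-86235599, which had 4.57, 10.2, 4.26 and 7.17 and 1.00 (95% counting interval 0.80 to 1.20). A peak was called there in both TAC libraries and in neither sham library. The 2 neighbouring Armc9 regions had 1.02 and 0.58. A region listed for Ttll5 and Tgfb3, at chr12:86044400-86048799, had 5.55, 10.9, 4.38 and 10.7, with both TAC libraries well above both sham libraries and ratios of 0.86 and 1.13.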

How the data were processed

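H3K23Pr ChIP-seq was measured in 4 libraries, 1 per group, each of 3 pooled hearts. The authors merged the peaks of the 4 libraries into 29210 regions and deposited, per the file headers, the average signal and the peak signal of each library in each region, a peak call, and log2 ratios of pairs of libraries. Per the submitters' processing notes, BWA, MACS2 and build mm10 were used, with no version stated. The scaling between libraries, and any use of an input library, are not given in the sources used here.

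The values used here were the deposited average signals. Log2 ratios were computed after adding a pseudocount of 1, and a region was called past 1.5-fold. Fragments were estimated as signal × length / 224, which equals the tag numbers deposited for pairs of libraries. Intervals of 95% use these fragments and cover counting error only. Python 3.11.15, pandas 2.3.3 and numpy 2.4.6 were used, and the calculation was tested on simulated data. With 1 library a group, no test across animals was possible.

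The class, the 18 gene lists and the named regions were chosen with earlier results of these data known. Named regions were the highest and lowest ratios among regions of above-median signal, the extremes of each gene list, genes with at least 4 regions at either end, and a set of cardiac, branched-chain amino acid, matrix and leukocyte genes. Regions named outside this rule, among them further members of the lists and long regions, were chosen after their values were seen. Gene symbols matched RefSeq (GRCm38.p6) for 5201 of 5324 genes. Of 6030 distances from a listed start that could be compared, 4569 (75.8%) matched a RefSeq start within 10 bases. Alternatives were 2 other pseudocounts, 2 scalings, peak height, filters on signal, peak calls, length, gene number and position, and the absence of a RefSeq start.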

Additional observations from a re-analysis of the deposited data

Results flagged for a closer look

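In 3 short regions the sign of the TAC ratio was opposite on the 2 diets, with both ratios past 1.5-fold. The Zfp536 region of 600 bases had signals of 5.61, 11.1, 8.50 and 4.56 in BCAA-control sham, BCAA-control TAC, BCAA-free sham and BCAA-free TAC, and the TAC ratios differed by -1.65. The Trim66 region of 1200 bases had 4.16, 7.86, 7.49 and 4.50, a difference of -1.41. The Plekhh2 region of 1400 bases had 5.39, 10.1, 9.54 and 6.02, a difference of -1.39. These differences were not tested, since each group is 1 library, and all 3 regions are shorter than the median of the class.

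In 6 gene lists the median TAC ratio was on opposite sides of 0 on the control and the BCAA-free diet. The median difference over regions was -0.33 for the fibroblast list, -0.28 for the cell cycle list, -0.22 for the neuron and liver list, -0.21 for the extracellular matrix list, -0.12 for the lymphocyte list and 0.11 for the tricarboxylic acid cycle list. None of these differences was tested. Another scaling turned the cell cycle median on the BCAA-free diet from -0.03 to 0.03, and the neuron and liver median on the control diet from 0.03 to -0.02, so these 2 medians have no settled sign.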

How the results depend on the processing

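Of 140 percentages recomputed under 14 settings, 89 stayed within 1.5 times and 51 did not. Percentages are given as higher and lower for TAC on the control diet, TAC on the BCAA-free diet, diet in sham, diet in TAC, and the difference of TAC ratios. Without a pseudocount they were 8.14 higher, then 3.43 and 5.97, 5.94 and 3.76, 2.43 and 2.76, and 5.13 and 7.83. With a pseudocount of 5 they were 0.434 and 1.01, 0.108 and 0.239, 0.217 and 0.163, 0.0651 and 0.0976, and 0.542 and 0.586. With peak height they were 10.9 and 16.6, 5.59 and 13.8, 10.1 and 7.31, 5.68 and 6.81, and 10.6 and 16.3. In regions with a peak call in all 4 libraries they were 1.20 higher, then 0.153 and 1.23, 0.818 and 0.562, 0.0767 and 0.102, and 0.818 and 1.30. In regions of 10000 bases or more, a setting chosen after seeing the data, they were 1.41 and 4.52, 0.207 and 0.621, 0.373 and 0.166, 0 and 0.0414, and 0.166 and 0.621. Regions of above-median signal had 1.02 higher for TAC on the BCAA-free diet. Quantile normalisation gave 2.04 higher for diet in sham and 3.12 lower for the difference of TAC ratios. A larger pseudocount shrinks every ratio by construction, and the other causes were not tested. Of 4750 ratios of 190 named regions, 4340 moved by less than their counting interval, 408 moved more, 308 of these with peak height, and 2 that had passed the rule turned sign. The latter were those of a Cacnb2 region of 1600 bases with peak height, at 0.24 for diet in sham and -0.12 for the difference of TAC ratios. Of 450 list medians, 22 turned sign, 21 of them medians of a size under 0.1, and the other was the sarcomere median for diet in sham, which turned to 0.039 with peak height. No paired analysis was possible because each group has 1 library and no replicate. Leaving out a library was not possible for the same reason. Few fragments limit the precision of short regions.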

Other observations

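RefSeq places 19 miRNA hairpins inside regions of the class. The region with Mir5709, listed for Ptprm, a receptor phosphatase gene, had signals of 9.35 in BCAA-control sham and 5.05 in BCAA-control TAC. The region with Mir6367, listed for Ifnar1, a type I interferon receptor gene, had 5.79 and 9.04 in the same libraries. The region with Mir8119, listed for Lck, a kinase of T cells, had 9.23 and 9.40. The mark does not show whether a hairpin is transcribed.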
